A study of Homo sapiens with 6 samples.

Results

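TMEM160, PDF and PCSK1N are 3 of the 16834 genes counted in RNA that was recovered with tagged ribosomes from a human embryonic kidney line. They were chosen by their own values, as genes with higher counts in the HA-IPs than in the Flag-IPs and with counts far lower in Flag-IP replicate 1 than in replicate 3. Their levels in the 6 libraries, the direction and size of both differences and their ranks by them restate that choice, and are a description given without a test. All 3 are in the table after the authors' filter on low counts, and the lowest read number of any of them in any library was 35.

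HEK293-T Flp-In cells carry 1 integrated copy of ccTaggedRP, a bicistronic construct under the CAG promoter. It encodes mouse RPL10a, a protein of the large ribosomal subunit, in a Flag-tagged form fused to a fragment of human Cdt1 and in an HA-tagged form fused to a fragment of human Geminin. The Cdt1 fragment is degraded from late S phase to mitosis and the Geminin fragment from late G1 to early S phase, so the comparison asks which mRNAs differ between ribosomes of different cell cycle phases. All 6 libraries came from unsynchronized cells that express both forms. Per the paper, these cells were grown in medium with fetal bovine serum and Hygromycin B. The Flag-IPs (n = 3) were made with an antibody against Flag and the HA-IPs (n = 3) with an antibody against HA. No library of input RNA was analysed here. In such bulk samples, fewer cells with a transcript and less of it per cell cannot be told apart.

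PDF is the mitochondrial peptide deformylase, which removes the formyl group from the start of proteins made inside mitochondria. PCSK1N encodes proSAAS, a secretory granule protein of neuroendocrine cells that inhibits the prohormone convertase PCSK1 and is itself a source of peptides. TMEM160 encodes a small membrane protein of the mitochondrial inner membrane.

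The base composition of their exons was not itself a criterion of the choice. It is not independent of that choice, because the difference within the Flag-IPs moved with GC content over all genes, as given below. The exons were GC-rich in the coding sequence of all 3 and over the whole transcript in TMEM160 and PCSK1N only. In GENCODE release 44 (GRCh38) TMEM160 (ENSG00000130748) lies on the minus strand of chromosome 19, at chr19:47045909-47048624, and has 3 exons and a canonical transcript of 655 nt with 72.2% GC. PCSK1N (ENSG00000102109) lies on the minus strand of the X chromosome, at chrX:48831096-48835610, with 3 exons, 1025 nt and 74.2% GC. PDF (ENSG00000258429) lies on the minus strand of chromosome 16, at chr16:69326913-69330588, with 2 exons, 2859 nt and 52.9% GC. The coding sequences had 73.2% GC in TMEM160, 71.1% in PDF and 75.6% in PCSK1N. To show this composition, the 120 bases of highest GC content in each coding sequence are printed here as read from GRCh38, in transcript direction with each CG dinucleotide in capitals. They lie at chr19:47048476-47048595 in TMEM160, chr16:69330143-69330262 in PDF and chrX:48831925-48832044 in PCSK1N.
TMEM160: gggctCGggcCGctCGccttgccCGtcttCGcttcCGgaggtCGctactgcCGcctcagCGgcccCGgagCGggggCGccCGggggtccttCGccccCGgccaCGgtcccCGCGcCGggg
PDF: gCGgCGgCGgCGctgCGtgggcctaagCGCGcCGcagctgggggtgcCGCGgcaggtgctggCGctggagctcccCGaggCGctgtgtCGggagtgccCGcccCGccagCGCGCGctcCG
PCSK1N: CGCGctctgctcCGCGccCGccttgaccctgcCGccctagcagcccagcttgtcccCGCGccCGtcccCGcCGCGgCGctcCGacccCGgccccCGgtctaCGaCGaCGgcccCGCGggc
Each window had 81.7% GC. CG dinucleotides numbered 19 in the window of TMEM160, 20 in that of PDF and 21 in that of PCSK1N.

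The exons of PDF are unlike each other, as the exon map shows. Exon 1, at chr16:69329997-69330588, has 592 nt with 74.7% GC, holds 574 of the coding bases and overlaps no exon of another gene. Exon 2, at chr16:69326913-69329179, has 2267 nt with 47.2% GC, and all of it is also exon sequence of COG8, a Golgi tethering subunit gene on the same strand. Of these bases, 536 are shared with the gene ENSG00000272617 on the same strand and 27 with VPS4A on the opposite strand. How reads on shared bases were assigned, and whether strand was used, is not given in the sources used here, so the count of PDF is uncertain to that extent. The 592 unshared bases are 20.7% of the PDF transcript. No exon base of TMEM160 or PCSK1N was shared.

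**Figure D1:**
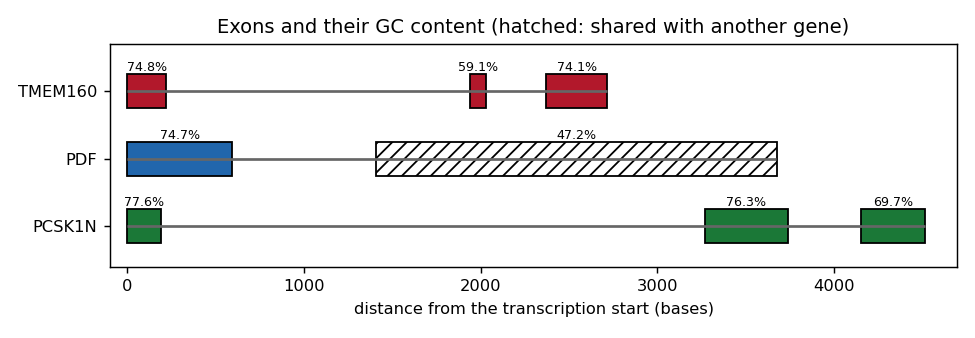
Exons of the canonical transcripts of TMEM160, PDF and PCSK1N (boxes) against the distance from the transcription start in bases, with the GC content of each exon above it. The hatched box is exon 2 of PDF, all of which is shared with COG8, and it is the exon of lowest GC content, 47.2%.

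By whole-transcript GC content, 64.1% of 11869 genes lay below PDF. Over the bases not shared with another gene, a measure chosen after the data had been seen, GC content was 72.2% in TMEM160, 74.7% in PDF and 74.2% in PCSK1N. Of the 11586 genes averaging 100 or more normalized counts and at least 200 unshared exon bases, 27 had a content at or above that of TMEM160, 13 at or above that of PDF and 17 at or above that of PCSK1N, each gene counted with itself. The transcript of TMEM160 was also short, with 2.05% of 11869 genes having a shorter one. The corresponding share was 6.14% for PCSK1N and 39.4% for PDF.

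The counts of the 3 genes move together by choice, and a link to their promoters was not tested. The promoters are printed as a description. They run from 250 bases before to 50 bases after the RefSeq start (GRCh38.p14), in transcript direction, and capitals mark GC boxes (GGGCGG or CCGCCC) and CCAAT boxes (CCAAT or ATTGG). Their positions are chr19:47048575-47048874 for TMEM160, chr16:69330539-69330838 for PDF and chrX:48835561-48835860 for PCSK1N.
TMEM160: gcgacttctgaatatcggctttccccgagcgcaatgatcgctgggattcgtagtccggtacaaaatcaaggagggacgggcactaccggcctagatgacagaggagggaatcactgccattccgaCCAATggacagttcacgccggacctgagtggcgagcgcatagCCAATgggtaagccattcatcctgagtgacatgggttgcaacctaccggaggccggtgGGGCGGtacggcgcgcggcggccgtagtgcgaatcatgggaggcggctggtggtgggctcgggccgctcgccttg
PDF: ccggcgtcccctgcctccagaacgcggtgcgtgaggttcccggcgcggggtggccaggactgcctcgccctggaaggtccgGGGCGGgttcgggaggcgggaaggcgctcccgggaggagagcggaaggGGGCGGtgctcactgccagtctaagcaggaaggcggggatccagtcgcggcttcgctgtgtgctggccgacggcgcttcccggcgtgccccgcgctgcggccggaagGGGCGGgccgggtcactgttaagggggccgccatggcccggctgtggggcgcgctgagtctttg
PCSK1N: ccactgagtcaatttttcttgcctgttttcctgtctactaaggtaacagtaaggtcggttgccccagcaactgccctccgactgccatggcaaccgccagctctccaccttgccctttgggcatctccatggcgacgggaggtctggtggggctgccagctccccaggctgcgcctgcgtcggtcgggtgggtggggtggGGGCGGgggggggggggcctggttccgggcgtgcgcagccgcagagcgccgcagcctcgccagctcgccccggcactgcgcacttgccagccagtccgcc
GC content was 61.7% in the promoter of TMEM160, 74.3% in that of PDF and 68.3% in that of PCSK1N, against a median of 65.3% over 11930 promoters of genes in the table. A lower content was found in 34.8% of promoters for TMEM160, 82.0% for PDF and 60.8% for PCSK1N. The GC box occurred once in TMEM160, 3 times in PDF and once in PCSK1N, and in 69.5% of all promoters. TMEM160 held 2 CCAAT boxes and the others none, against 36.4% of promoters with at least 1. The letters TATAAA (in 5.89% of promoters), CACGTG (10%), TGACG (33.7%) and GCGCATG (7.15%) were searched on both strands and found in none of the 3 promoters. These matches are letters in a window and not measured binding sites.

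Reads on listed genes numbered 28737728 to 44134833 per HA-IP. Among the Flag-IPs they were 23174532, 28223693 and 33429519 in replicates 1, 2 and 3. Of 24 heart muscle markers such as MYH7 and TTN, 20 were in the table, and their summed share of counts was 0.709%, 0.518% and 0.331% in Flag-IP replicates 1, 2 and 3 and 0.00686% to 0.0637% in the HA-IPs. All 20 were called higher in the Flag-IPs by limma, at an adjusted p of at most 0.05, as were 7.1% of all genes. None of the 20 was at 0 in a Flag-IP, and CSRP3 was at 0 in HA-IP replicates 1 and 2. Read number ran in the same order, and marker share in the opposite order, as the counts of TMEM160, PDF and PCSK1N in the Flag-IPs, and their part in those counts was not tested. The 10 measured of 12 epithelial and kidney markers summed to 28450 to 30206 normalized counts in the Flag-IPs and 32168 to 32752 in the HA-IPs, with NPHS1 and UMOD not in the table used here. Of these 10, EPCAM (0.34) and CDH1 (0.29) were called higher in the HA-IPs, and PAX2 (-0.79) and PAX8 (-3.57) higher in the Flag-IPs.

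TMEM160 had Flag-IP values of 45.5, 123 and 339 and HA-IP values of 444, 572 and 423 normalized counts in replicates 1, 2 and 3. Normalized counts are reads scaled by the size factor of their library. The lowest HA-IP was 1.25-fold above the highest Flag-IP, so the groups did not overlap, but most of the distance between them came from Flag-IP replicates 1 and 2. The value of Flag-IP replicate 1 rests on 35 reads, with a 95% exact Poisson interval of 31.7 to 63.2 normalized counts, and that of replicate 3 on 368 reads, with an interval of 306 to 376. These intervals cover counting error only, and those of the 3 Flag-IPs were disjoint. The Flag-IPs averaged 169 ± 152 (SD, n = 3) and the HA-IPs 480 ± 80.8 (SD, n = 3), a difference of 1.93 on the log2(normalized counts + 1) scale used throughout.

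PDF had Flag-IP values of 104, 214 and 368 and HA-IP values of 496, 534 and 416 normalized counts in replicates 1, 2 and 3. The order of the libraries was that of TMEM160 within the Flag-IPs and also within the HA-IPs, with the highest value in HA-IP replicate 2 and the lowest in replicate 3. The means were 229 ± 133 in the Flag-IPs and 482 ± 60.3 in the HA-IPs (SD, n = 3 each), a log2 difference of 1.25. The lowest HA-IP was 1.13-fold above the highest Flag-IP. The counting intervals of these 2 libraries, 375 to 460 and 333 to 406, overlapped. Overlap of separate intervals does not decide whether counting error could account for the gap between the groups.

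PCSK1N had Flag-IP values of 148, 275 and 565 and HA-IP values of 629, 710 and 644 normalized counts in replicates 1, 2 and 3. Flag-IP replicate 3 stood closer to the HA-IPs than to the other Flag-IPs. The means were 330 ± 214 and 661 ± 43.0 (SD, n = 3 each), a log2 difference of 1.21. The gap between the groups was again small, with 1.11-fold between Flag-IP replicate 3 and HA-IP replicate 1 and counting intervals of 522 to 612 and 589 to 672 that overlapped. Across the whole table, 16.1% of genes had every HA-IP above every Flag-IP, and this is a property the 3 genes were selected on.

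**Figure D2:**
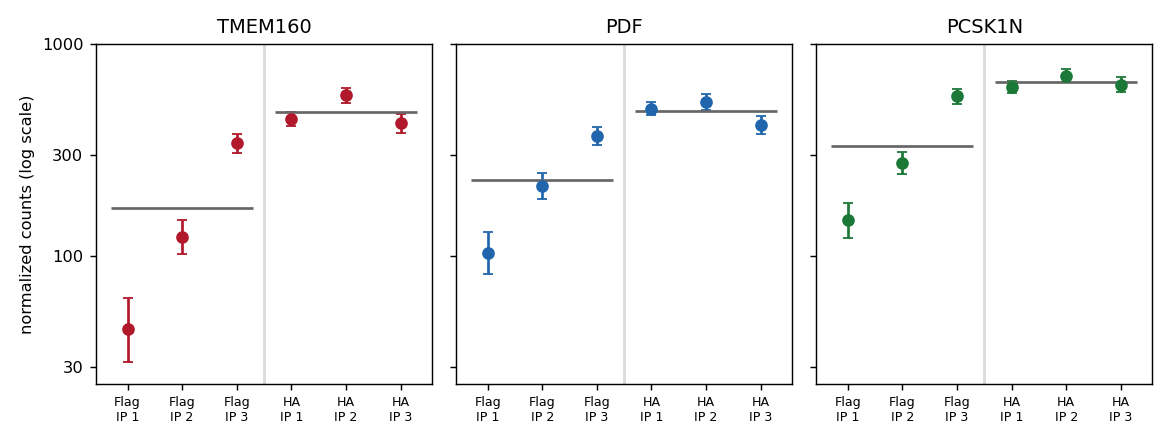
Normalized counts (log axis) of TMEM160, PDF and PCSK1N in the 3 Flag-IPs and the 3 HA-IPs. Points are libraries, bars are 95% exact Poisson intervals and lines are group means, and Flag-IP replicate 1 is the lowest library for each gene, at 45.5, 104 and 148.

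The spread within the Flag-IPs, on which the genes were selected, was wider than that within the HA-IPs. The highest Flag-IP exceeded the lowest 7.47-fold for TMEM160, 3.54-fold for PDF and 3.82-fold for PCSK1N. The corresponding factors among the HA-IPs were 1.35, 1.28 and 1.13. As a standard deviation on the log2 scale, the Flag-IPs had 1.44, 0.91 and 0.96, where the median over the 11895 genes averaging 100 or more normalized counts was 0.09. The HA-IPs had 0.23, 0.19 and 0.09, against a median of 0.07, so PCSK1N was the most even of the 3 there. Relative to its HA-IP mean, TMEM160 stood at 9.47%, 25.7% and 70.7% in Flag-IP replicates 1, 2 and 3, PDF at 21.6%, 44.4% and 76.4%, and PCSK1N at 22.4%, 41.7% and 85.5%.

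Flag-IP replicate 3 minus replicate 1 was 2.87 on the log2 scale for TMEM160, 1.93 for PCSK1N and 1.81 for PDF, which are ranks 1, 4 and 6 among the 11895 genes by the difference they were selected on. For those genes the median was 0.00 and the 1st and 99th percentiles were -0.77 and 0.62. A difference of 1 or more was found for 17 genes and one of -1 or less for 49. By HA-IPs minus Flag-IPs TMEM160, PDF and PCSK1N ranked 1, 5 and 6, and only 7 of the 11895 genes reached a difference of 1. Both differences reached 1 in 4 genes, the 3 described here and ENSG00000275807, a long noncoding RNA gene with Flag-IP values of 31.2, 70.2 and 120 and HA-IP values of 234, 192 and 141 normalized counts. Just inside both limits lay PCSK1N with HA-IPs minus Flag-IPs of 1.21. Just outside, among others, lay INAFM1, with 0.88 for the HA-IPs minus the Flag-IPs and 0.98 within the Flag-IPs. TRAPPC5 had 0.87 and 2.12, ZNF580 had 0.82 and 1.29, and NDUFAF8, a complex I assembly factor gene, had 1.06 and 0.72.

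Without Flag-IP replicate 1, the log2 difference of HA-IPs minus Flag-IPs was 1.21 for TMEM160, 0.77 for PDF and 0.74 for PCSK1N. Without Flag-IP replicate 3 it was 2.65, 1.68 and 1.70. The size of the difference therefore depended on which Flag-IP was counted, while leaving out any HA-IP kept it between 1.79 and 2.01 for TMEM160, between 1.17 and 1.35 for PDF and between 1.16 and 1.25 for PCSK1N.

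PDF and PCSK1N followed each other closely, which in part restates their choice for a common shape. The normalized count of PDF divided by that of PCSK1N, not corrected for length, had Flag-IP values of 0.702, 0.776 and 0.651 and HA-IP values of 0.788, 0.752 and 0.646. The 2 groups overlapped in this ratio although each gene alone changed several fold between Flag-IP replicates 1 and 3. TMEM160 varied more than PCSK1N, since its ratio to PCSK1N had Flag-IP values of 0.307, 0.448 and 0.600 and HA-IP values of 0.705, 0.806 and 0.658. Per kilobase of unshared exon, the HA-IP level was 814 ± 102 for PDF, 733 ± 123 for TMEM160 and 645 ± 42.0 for PCSK1N (SD, n = 3), and neighbours in this order differed by less than the larger of their SDs. In the Flag-IPs these levels were 386 ± 224, 259 ± 233 and 322 ± 209 for PDF, TMEM160 and PCSK1N, also closer together than the SDs. For PDF this assumes that only reads on unshared bases were counted.

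Likeness to other genes was measured as the root-mean-square difference of the log2 values centred on the 6-library mean, over 11631 genes with a symbol that averaged 100 or more normalized counts. For PDF the most alike gene was PCSK1N and for PCSK1N it was PDF, with a difference of 0.11. TMEM160 was most like PCSK1N (0.46) and PDF (0.47). The 3 genes were chosen for a common shape, so their likeness to each other in part restates that choice. Next came TRAPPC5, a subunit gene of the TRAPP trafficking complex, with 0.34 to the mean profile of the 3 genes and Flag-IP values of 31.2, 77.6 and 139 and HA-IP values of 152, 123 and 114 normalized counts. The zinc finger gene ZNF580 had 0.42, and its Flag-IP values of 360, 570 and 878 and HA-IP values of 989, 1043 and 964 normalized counts kept the library order of TMEM160 and PDF. INAFM1 (0.46), the readthrough gene HNRNPUL2-BSCL2 (0.49), NDUFAF8 (0.51), NCBP2AS2 (0.51), CRACDL (0.56), ZNF444 (0.56), the galanin gene GAL (0.57) and the acyl-CoA thioesterase gene ACOT2 (0.57) completed the 10 nearest.

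**Figure D3:**
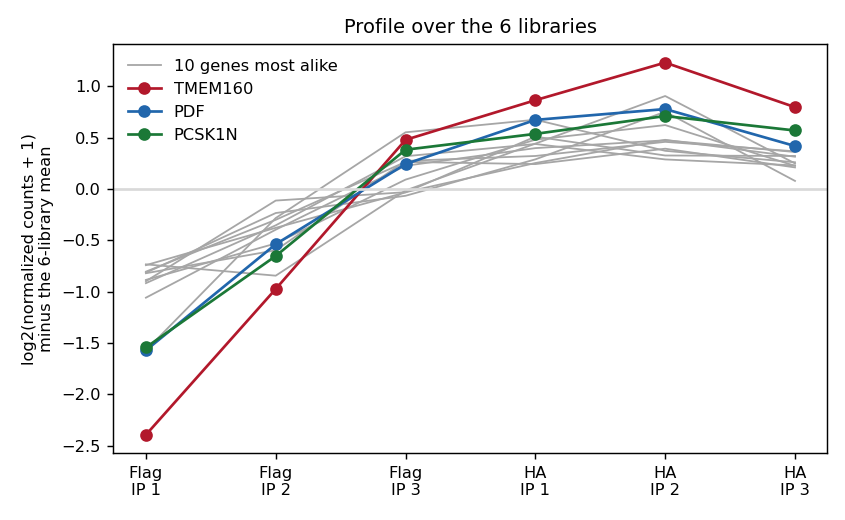
log2(normalized counts + 1) minus the mean over the 6 libraries for TMEM160, PDF, PCSK1N and the 10 genes most like their mean profile. Lines only join the values of a gene, and all 13 genes are lower in Flag-IP replicates 1 and 2 than in any HA-IP.

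By their medians, these 10 genes had few exons, short transcripts and GC-rich unshared bases. Their median transcript had 3 exons and 1389 nt, against 9 exons and 3542 nt over the 11631 genes. At most 3 exons were found in 6 of the 10 (60%), against 12.2% of the 11631. Median GC content of the unshared bases was 61.4%, against 48.1%, and 9 of the 10 lay above that median, HNRNPUL2-BSCL2 having no unshared base. The profiles were compared in the same 6 libraries, so these shares describe the libraries as much as the genes. Single genes departed from the medians. TRAPPC5, the most alike, had 5508 nt, HNRNPUL2-BSCL2 had 24 exons, and PDF itself has 2859 nt.

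GC content and the difference within the Flag-IPs moved together over the genes that averaged 100 or more normalized counts and had at least 200 unshared exon bases. With TMEM160, PDF and PCSK1N left out, the median of Flag-IP replicate 3 minus replicate 1 was -0.13 for the 2069 genes under 40% GC, 0.03 for the 1660 genes from 50% to 55%, 0.12 for the 1294 genes from 60% to 65% and 0.46 for the 66 genes of 70% or more. In the last class 57 of 66 genes (86.4%) were higher in Flag-IP replicate 3 than in replicate 1, against 24.3% of genes under 40%. The spread within that class was wide, with 5th and 95th percentiles of -0.17 and 0.99, and the highest values were 1.42 for CCDC85B, 1.19 for HMX1 and 1.11 for ZNF837. TMEM160, PDF and PCSK1N, at 2.87, 1.81 and 1.93, were selected on this difference and the 66 were not, so their place above the class is part of the choice. The HA-IPs exceeded the Flag-IPs in 49 of the 66 (74.2%), with a median of 0.15 on the log2 scale and the highest value at 0.88, for INAFM1. In the classes under 70% the share was 47.7% to 58.8% and the median -0.01 to 0.04, with no steady rise with GC content.

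**Figure D4:**
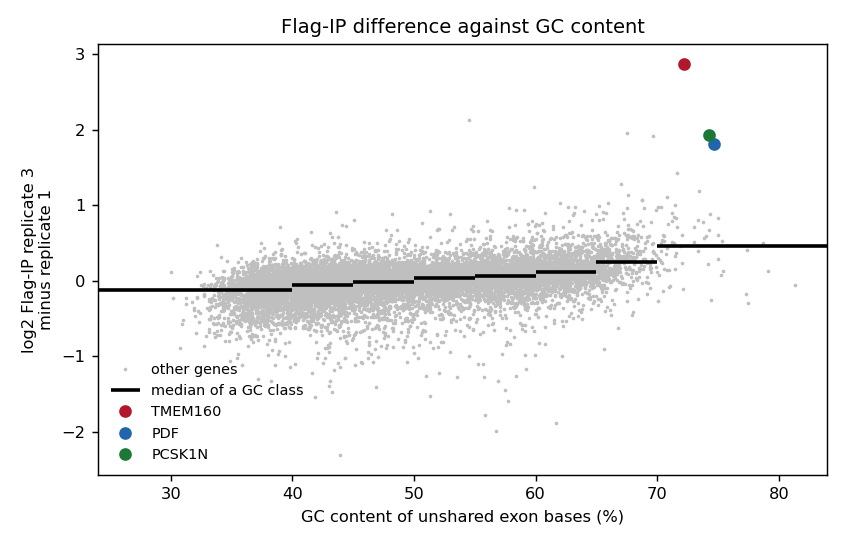
Flag-IP replicate 3 minus replicate 1 on the log2 scale against the GC content of unshared exon bases in percent, for genes averaging 100 or more normalized counts and at least 200 unshared bases. Black lines are medians of GC classes, from -0.13 under 40% to 0.46 at 70% or more, and TMEM160, PDF and PCSK1N lie above them at 2.87, 1.81 and 1.93.

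Trends with GC content and length of the unshared bases were fitted per library. The fit used genes averaging at least 50 for normalized counts + 1. Removing the trends left 2.70 of the 2.87 for TMEM160, 1.61 of the 1.81 for PDF and 1.68 of the 1.93 for PCSK1N. With the GC content and length of the whole transcript the remainders were 2.48, 1.78 and 1.37. The HA-IPs minus the Flag-IPs then stood at 1.93, 1.23 and 1.09, and at 1.98, 1.28 and 1.19 with the unshared bases. The 3 genes were selected on the difference within the Flag-IPs. At their unshared GC content the trend rests on few genes, with 66 others at 70% or more. The part of base composition in the difference was not tested.

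The genes beside TMEM160, PDF and PCSK1N did not share their values. Of the 18 nearest genes of the table, 3 on each side of each gene, 1 was called higher in the HA-IPs and 2 higher in the Flag-IPs by limma at a Benjamini-Hochberg adjusted p of at most 0.05, where 5.79% and 7.1% of all genes were called. Their median log2 difference was 0.01, with a range of -0.48 (WAS) to 0.50 (ENSG00000260914). COG8, which covers exon 2 of PDF, had Flag-IP values of 356, 431 and 399 and HA-IP values of 432, 375 and 365 normalized counts, a log2 difference of -0.02 (limma, adjusted p = 0.942). The overlapping ENSG00000272617 had Flag-IP values of 686, 907 and 778 and HA-IP values of 838, 844 and 773. Both were lowest in Flag-IP replicate 1, as PDF was, but far less below their other values than the 3.54-fold range of PDF.

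NPAS1, which ends 134 bases from the end of TMEM160, came nearest to it in the Flag-IPs. This gene of a neuronal transcription factor has 69.5% GC and had Flag-IP values of 155, 246 and 267 and HA-IP values of 202, 206 and 197 normalized counts. Flag-IP replicate 3 minus replicate 1 was 0.78, the highest of the 18, and no neighbour reached 1. Of the called neighbours, the deacetylase gene HDAC6 beside PCSK1N was higher in the HA-IPs by 0.18 (limma, adjusted p = 0.0442), and that call was lost without each library other than Flag-IP replicate 3, with adjusted p up to 0.154. SAE1, for a SUMO-activating subunit, was lower in the HA-IPs, at -0.24 (limma, adjusted p = 0.0156) and lost its call without Flag-IP replicate 2, HA-IP replicate 1 or HA-IP replicate 2, with adjusted p up to 0.0968. TIMM17B, for a subunit of the mitochondrial import translocase, was lower in the HA-IPs, at -0.34 (limma, adjusted p = 0.0103). It lost its call without Flag-IP replicate 2 (0.0615) or HA-IP replicate 1 (0.0579). With the GC and length trends removed TIMM17B stood at -0.15 (limma, adjusted p = 0.122), and with those of the unshared bases it kept its call at -0.20 (0.0466).

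**Figure D5:**
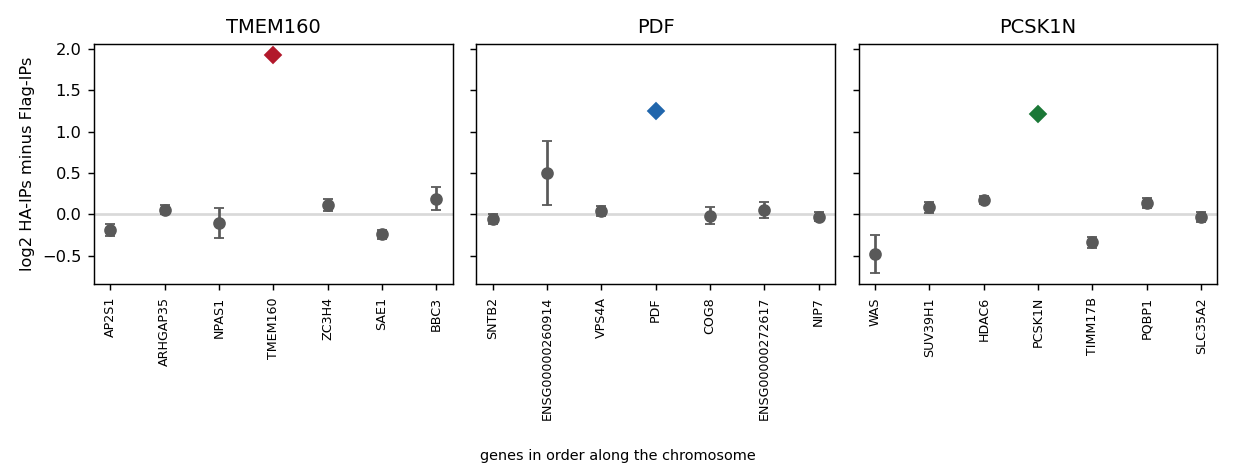
HA-IPs minus Flag-IPs on the log2 scale for TMEM160, PDF and PCSK1N (diamonds) and their 3 nearest genes of the table on each side, in order along the chromosome. Bars on the neighbours are the standard errors of limma, and the neighbours lie between -0.48 and 0.50 while the 3 genes lie at 1.93, 1.25 and 1.21.

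PDF acts in a chain of enzymes that make and trim the ends of mitochondrial proteins, and the other 18 genes of that list were all measured. By limma 3 were called higher in the HA-IPs and 1 higher in the Flag-IPs, beside 5.79% and 7.1% of all genes, and the median log2 difference was 0.03, against 0.00 over all genes tested. The called genes were PMPCA, of the peptidase that removes targeting sequences (5758 ± 277 in the Flag-IPs and 6813 ± 92.8 in the HA-IPs, SD, n = 3, limma adjusted p = 0.00947), AFG3L2 and YME1L1, of inner membrane proteases (log2 differences 0.24 and 0.21, limma adjusted p = 0.0105 and 0.0196), and IMMP1L, an inner membrane peptidase gene that was lower in the HA-IPs, at -0.75 (limma adjusted p = 0.0215). The enzymes next to PDF passed no test. MTFMT, which adds the formyl group to the initiator tRNA, had a log2 difference of 0.26 (limma adjusted p = 0.0861), and METAP1D, the methionine aminopeptidase that follows PDF, had -0.14 (limma adjusted p = 0.335). After quantile normalization YME1L1 stood at 0.12 (limma adjusted p = 0.0699). The number called was 1 without Flag-IP replicate 2 or HA-IP replicate 1, and 2 without HA-IP replicate 3. Flag-IP replicate 3 minus replicate 1 lay between -0.51 and 0.21 for all 18.

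PCSK1N belongs to the prohormone pathway, of whose other 24 genes 21 were measured, with CPZ, SCG2 and GPR171 not in the table used here. By limma 3 were called higher in the HA-IPs and 0 higher in the Flag-IPs, beside 5.79% and 7.1% of all genes, with a median of 0.01. The 3 were the carboxypeptidase genes CPD (0.32, limma adjusted p = 0.0048) and CPE (0.28, limma adjusted p = 0.00918) and the convertase gene PCSK5 (0.23, limma adjusted p = 0.0375). CPE, which trims peptides after convertase cleavage, had 3126 ± 173 normalized counts in the Flag-IPs and 3792 ± 145 in the HA-IPs (SD, n = 3). PCSK1, the target of proSAAS, had low counts, with Flag-IP values of 24.7, 19.1 and 14.8 and HA-IP values of 24.7, 25.8 and 25.4 normalized counts (log2 difference 0.38, limma adjusted p = 0.47). PCSK2 (0.34, limma adjusted p = 0.606) and its chaperone gene SCG5 (-0.12, limma adjusted p = 0.893) passed no test. The number called was 1 without Flag-IP replicate 2, where CPD alone was left. PCSK5 lost its call without each library other than Flag-IP replicate 3 (limma adjusted p of 0.0702 to 0.138) and with the GC and length trends removed (0.0679). Flag-IP replicate 3 minus replicate 1 ran from -0.78 to 0.67.

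For TMEM160, 11 other genes of mitochondrial TMEM proteins were measured. Their median log2 difference was -0.08, none was called higher in the HA-IPs and 1, TMEM11, was called lower, at -0.24 (limma adjusted p = 0.0362), beside 5.79% and 7.1% of all genes. With the GC and length trends removed TMEM11 stood at -0.08 (limma adjusted p = 0.458), and at -0.12 (0.224) with those of the unshared bases. The call was also lost without each library other than Flag-IP replicate 3, where 2 of the list were called. Of 14 genes of the mitochondrial unfolded protein response, the chaperone genes HSPA9 (0.26, limma adjusted p = 0.0116) and HSPD1 (0.22, limma adjusted p = 0.0247) were higher in the HA-IPs, and the co-chaperonin gene HSPE1 was lower, at -0.57 (limma adjusted p = 0.0478), where 5.79% of all genes were called higher and 7.1% lower. HSPE1 stood at -0.33 without Flag-IP replicate 1 (limma adjusted p = 0.0423) and at -0.33 with the GC and length trends removed (0.0527). With those of the unshared bases removed it stood at -0.36 (limma adjusted p = 0.0451). After quantile normalization HSPA9 and HSPD1 both stood at 0.11 (limma adjusted p = 0.16 and 0.0718). None of the 14 was called without Flag-IP replicate 2, HA-IP replicate 2 or HA-IP replicate 3, 1 was called without HA-IP replicate 1, and the median was -0.01. In none of the 4 lists did a gene reach 1 for Flag-IP replicate 3 minus replicate 1, the highest being 0.67.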

How the data were processed

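RNA bound to Flag- or HA-tagged ribosomes was sequenced after poly(A) selection as paired reads of 150 bp. Per the submitters' processing notes, reads were trimmed with Trimmomatic 0.36, mapped to GRCh38 with STAR 2.5.2b and counted with featureCounts of Subread 1.5.2. The annotation release and strand setting are not given in the sources used here. The authors excluded genes with few reads and deposited a normalized signal, read counts divided by a size factor per library. They also deposited log2 fold changes and adjusted p-values from DESeq2, which were not used. Whole reads were recovered from the steps between values, and 100% of values came out whole within 0.01 read. The size factors were between 0.770 and 1.42.

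HA-IPs and Flag-IPs were compared over 16834 genes on the scale log2(normalized counts + 1) by limma 3.58.1 in R 4.3.3 (variance trend, two-sided), at a Benjamini-Hochberg adjusted p of at most 0.05. It was also run on simulated counts with the same dispersion in every library, which do not cover the uneven spread of the Flag-IPs. Genes named are the 3 themselves, the 5 most like each and the 10 most like their mean (mean of at least 100 normalized counts), 3 neighbours on each side by position, and called or directly related genes of the lists. Any further gene named was picked after its values had been seen. The genes and lists were chosen with earlier results of these data known. GENCODE release 44 held 16683 of the identifiers, and promoters came from RefSeq. GC and length trends were fitted per library by robust splines of 5 degrees of freedom (MASS 7.3.60.0.1). Replicates differed by more than sampling noise, with chi-square per degree of freedom of 4.90 to 20.2. The labels do not say that replicates were separate cultures, so p-values measure the spread between these samples, which may be technical. Alternatives were pseudocounts of 0.1 and 10, a minimum mean of 50, 3 other scalings, edgeR 4.0.16 and DESeq2 1.42.0 on recovered reads, limma without trend, a replicate block, each library left out, and both trend removals, that on unshared bases chosen after seeing the data. Exact Poisson intervals used scipy 1.17.1.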

Additional observations from a re-analysis of the deposited data

How the results depend on the processing

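The log2 differences of TMEM160, PDF and PCSK1N kept their direction under every alternative and moved by less than 1 pooled SD. For libraries left out, both were fixed beforehand by groups of 3 that did not overlap. They are therefore no test of how firm the differences are. Leaving out 1 library gave 1.21 to 2.65, 0.77 to 1.68 and 0.74 to 1.70, the lower value when Flag-IP replicate 1 was out and the upper when it was replicate 3. edgeR gave 1.44, 1.04 and 0.97 and DESeq2 1.5, 1.07 and 1.0, both fitted to reads on a linear mean. The number of genes called was 2171, of which 44.9% were higher in the HA-IPs. It was 188 (3.19% higher in the HA-IPs) by limma without the trend and ranged from 620 (without Flag-IP replicate 2) to 3059 (without Flag-IP replicate 3) when 1 library was left out. The cause was not tested. With the replicate number as a block it was 1662. Whether equal numbers pair the libraries is not known, since the labels do not say so. Same-numbered libraries had correlations of deviations of -0.16, 0.04 and -0.32 over 11895 genes. Differently numbered ones had -0.27 to 0.32. Deviations from means of 3 libraries cannot decide whether a lysate was shared.

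Limma without the trend called 0 genes in each of the 4 lists. Quantile normalization called 5 prohormone genes, 0 TMEM genes and 0 genes of the unfolded protein response. Of the TMEM genes, 2 were called with the same total per library, 0 with the replicate block and 0 with the trends of unshared bases removed. Leaving out 1 library gave 1 to 6 called genes of mitochondrial protein ends, 1 to 3 prohormone genes, 0 to 2 TMEM genes and 0 to 4 genes of the unfolded protein response. The cause was not tested. For 14 called neighbours and list genes, 77 refits lost the call, 175 kept it and none reversed. The 3 genes had 35 to 892 reads per library, and the part of read number in their differences was not tested.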

Other observations

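Among 11895 genes averaging 100 or more normalized counts, Flag-IP replicate 3 exceeded replicate 1 by at least 1 on the log2 scale in 17. TMEM160, PDF and PCSK1N, selected on this difference, were 3 of the 17. One of the others was HSPB6, a small heat shock protein gene of muscle, with Flag-IP values of 321, 1263 and 1250 and HA-IP values of 35.3, 27.7 and 135 normalized counts. It was low in Flag-IP replicate 1, where the summed heart muscle markers were highest.

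FTH1, the ferritin heavy chain gene, was among the 17 too, with Flag-IP values of 1803, 2765 and 3787 and HA-IP values of 3194, 3253 and 3033 normalized counts. Here Flag-IP replicate 3 exceeded every HA-IP, and the log2 difference between groups was 0.25 (limma, Benjamini-Hochberg adjusted p = 0.45). CCDC85B, a single-exon gene with 71.7% GC, showed the same arrangement, with Flag-IP values of 831, 1723 and 2232 and HA-IP values of 1556, 1983 and 1711. Its log2 difference between groups was 0.24 (limma, adjusted p = 0.612).

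The zinc finger genes ZNF580, ZNF444, ZNF579 and ZNF837 were also among the 17. ZNF444 had Flag-IP values of 819, 1163 and 1720 and HA-IP values of 1695, 1881 and 1657 normalized counts, and ZNF579 had Flag-IP values of 612, 957 and 1251 and HA-IP values of 1363, 1341 and 1152. Flag-IP replicate 1 was the lowest library for each of the 4.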
